A study of Homo sapiens with 30 samples.

Results

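Of 16009 genes with a value at their transcription start, 383 start regions were enriched by an antibody against methylated adenosine in control MEL624 cells and were not enriched in MEL624 cells lacking PCIF1. The values that chose them were the group means of the deposited log2 CPM (CPM, reads scaled to library size, on a log2 scale). A member had a mean of at least 3 over 12 libraries, an IP at least 0.5 above its input in control cells, and an IP at or below its input in PCIF1 knockout (KO) cells. They are 3.97% of the 9646 genes at a mean of at least 3, and 371 of them have a gene name. Since all 12 libraries chose the members, the levels and differences given for them are descriptions without a test, unless held-out libraries are named. Both inputs enter the choice, with opposite signs in the final difference, so a gene with a high KO input or a low control input met the rule more easily.

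MEL624 is a human melanoma cell line. The second stage of the study compared 4 groups of 3 libraries. The KO IP and KO input came from cells with the genotype given as PCIF1 KO, and the control IP and control input from wild-type cells that carried a random sgRNA. The IPs of both genotypes were made with antibody 4, a mouse monoclonal antibody against m6A, from preparations of 200 ug of total RNA that had been selected for mRNA. The 3 libraries of a group are described as biological replicates. The KO line of the first stage was 1 clone per the series' design text, and whether the second-stage KO replicates came from different clones is not stated, which leaves a knockout effect and a clone effect that cannot be told apart. The 18 first-stage libraries are not analysed here.

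PCIF1 is the methyltransferase that adds a methyl group to the base of an adenosine when this is the first transcribed nucleotide after the mRNA cap, giving m6Am. In m6Am-Exo-Seq, an exonuclease degrades RNA fragments without a cap, and an antibody that recognises m6A and m6Am then pulls down methylated 5′ ends. The antibody can also bind internal m6A, which is made by other enzymes and lies within the fragment rather than beside the cap.

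The starts of 8 members are printed to show the nucleotides at issue. They comprise 5 members that begin with A, 2 that begin with G and 1 that begins with C by the annotation used. Each line runs 5′ to 3′ over 30 bases of hg38, with the first transcribed base of the GENCODE canonical transcript as the only capital and 10 bases before it. The windows are chr7:26200727-26200756 for HNRNPA2B1 (minus strand), chr16:19522079-19522108 for GDE1 (minus), chr6:38703126-38703155 for GLO1 (minus), chrX:48911627-48911656 for SLC35A2 (minus) and chr19:572586-572615 for BSG (plus). Those of the other 3 are chr1:241519736-241519765 for FH (minus), chr17:75779760-75779789 for H3-3B (minus) and chr5:179623652-179623681 for HNRNPH1 (minus).
HNRNPA2B1: ctctagcggcAgtagcagcagcgccgggtc
GDE1: tgctgccgccAttgtgcggcgctggtcccc
GLO1: ccatcgcgccAttcctagttaaggcggcac
SLC35A2: cgggccgggcAgatgccaacatggcagcgg
BSG: cggcggcggcAgcggttggaggttgtagga
FH: ggccacagccGcccagaaattctacccaag
H3-3B: cgggggcttgGagcgcagagcggtttggtc
HNRNPH1: gcccgctggcCatttcgtcttagccacgca

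An annotated adenosine start was more frequent among the members than among all genes at the same level. Of 382 members with an annotated start, 269 began with A (70.4%, exact 95% interval 65.6 to 75), against 43.8% of 9612 genes at a mean of at least 3. G opened 94 members (24.6%, against 41.9% of all) and C opened 19 (4.97%, against 12.7%). None of the 382 began with T, against 1.7% of all. The interval covers counting error only, and genes are not independent replicates.

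The interval of the A share did not overlap those of the neighbouring classes. Of 2132 starts that were at least 0.5 above input in both genotypes, 55.2% began with A (53.1 to 57.3), and of 278 starts enriched only in KO cells 28.8% did (23.5 to 34.5). The pair CA, with C just before the start and A as the first base, stood at 210 of 382 member starts (55%), against 31.9% of all, 39.4% of starts enriched in both genotypes and 14.7% of those enriched only in KO cells. A 5′ TOP start, here a C followed by at least 4 pyrimidines and typical of ribosomal protein mRNAs, was found in 2 members (0.524%), against 5.85% of all. These were read on the gene's own strand.

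**Figure D1:**
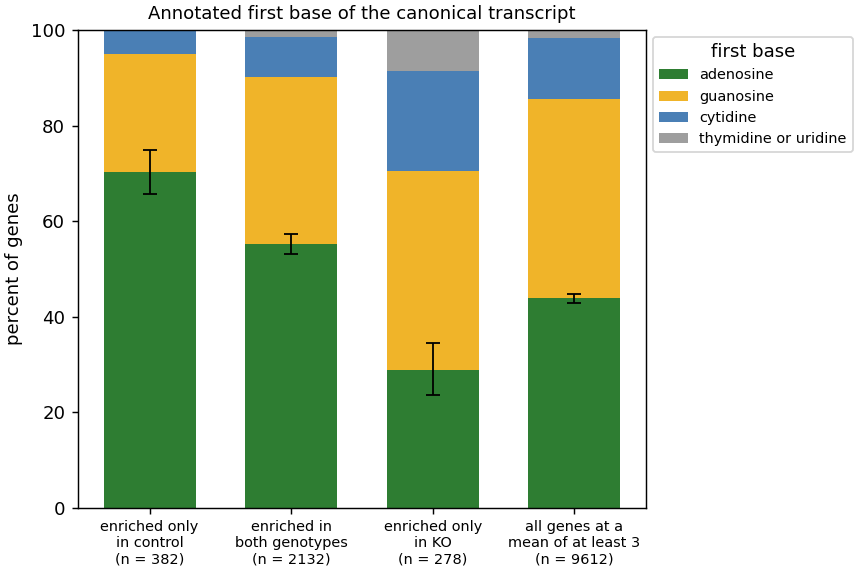
Stacked bars give the percent of genes whose canonical transcript begins with each base, for starts enriched only in control cells, in both genotypes, only in KO cells, and for all genes at a mean log2 CPM of at least 3. Error bars are exact 95% binomial intervals on the adenosine share, which is 70.4% in the class and 43.8% in all genes.

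The letters GGAC, a common form of the internal m6A motif, were looked for on the gene's strand in the first 200 bases of the canonical transcript. They occurred in 67.3% of members and 64.2% of all genes at that level, and in 67.9% of the starts enriched in both genotypes. Restricted to protein-coding genes, A opened 71.0% of members and 45.2% of all. With only starts that lie apart from other genes on the same strand it opened 73.3% of members and 45.1% of all. Read at the end of the gene record instead of the canonical transcript, the share was 50.5% of members and 38.9% of all.

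Among the members the A share was higher in the groups with a larger difference, which was not tested. Of 39 members whose enrichment was at least 1.5 lower in KO cells on the log2 scale, 32 began with A (82.1%). Of 153 with a difference between -1.5 and -1 it was 111 (72.5%), and of 190 with a smaller difference 126 (66.3%). The median difference was -1.03 for A starts, -0.98 for G starts and -1.0 for the 19 C starts.

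Library depth differed between the groups. KO IPs held 1753164 to 2177874 reads over the listed genes, KO inputs 2836120 to 3544669, control IPs 4035815 to 4625190 and control inputs 3232562 to 4094070. A member had a median of 65 reads in a KO IP, 135 in a KO input, 273 in a control IP and 155 in a control input, and 14 members had fewer than 10 reads in at least 1 KO IP. Small nucleolar RNAs took 4.58 to 4.9% of reads in KO IPs, 4.22 to 4.53% in KO inputs, 1.53 to 1.71% in control IPs and 4.26 to 4.96% in control inputs. The part of this shift in the differences between IPs was not tested. Of 11 melanocyte and melanoma markers, MITF, MLPH and RAB38 had values, summing to 58.7 to 69.9 CPM in KO IPs, 64.5 to 70.5 in KO inputs, 110 to 126 in control IPs and 67.4 to 78.1 in control inputs. The other 8 were not found by name among the listed genes, nor were 6 keratinocyte, 6 leukocyte and 4 endothelial markers. The filter behind the list is not given, so the cell type could not be checked on these markers.

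The targeted gene is not a member. PCIF1 had 35.4, 41.0 and 28.7 CPM in KO IPs, 70.4, 78.0 and 77.1 CPM in KO inputs, 30.1, 23.7 and 26 CPM in control IPs, and 57.9, 52.5 and 49.4 CPM in control inputs. The IPs lay below the inputs at its start in both genotypes, by a log2 difference of -1.12 in KO and -1.01 in control cells. Its KO inputs all lay above its control inputs, by 0.50 ± 0.14 (SE of the fit, limma adjusted p 0.023). The edit need not remove the start of the gene, and these values are no check of the labels.

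As a set, the members took a smaller share of the reads in KO IPs than in any other group. KO IPs gave them 3.19% ± 0.0551 of reads and KO inputs 4.21% ± 0.108, while control IPs gave 6.28% ± 0.055 and control inputs 4.18% ± 0.0872 (SD, n = 3 each). The 2 inputs gave nearly the same share, and the 2 kinds of IP lay on either side of it, as the rule requires.

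Enrichment, the log2 difference of IP minus input, had a median of -0.23 in KO cells (-1.90 to -0.0001) and of 0.70 in control cells (0.50 to 1.49). Over all 9646 genes at that level the medians were -0.09 in KO and 0.05 in control cells. The difference of enrichment, KO minus control, had a median of -1.0 among members and ran from -2.91 to -0.53, beside a median of -0.14 over all. The IPs alone differed by a median of -1.02 (KO minus control, -2.94 to 0.33), and the inputs alone by 0.03 (-1.36 to 1.81). Over all genes at that level the IPs differed by a median of -0.13 and the inputs by -0.005. Among members the inputs of both genotypes were close at the median, as over all genes, and the IPs were not.

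**Figure D2:**
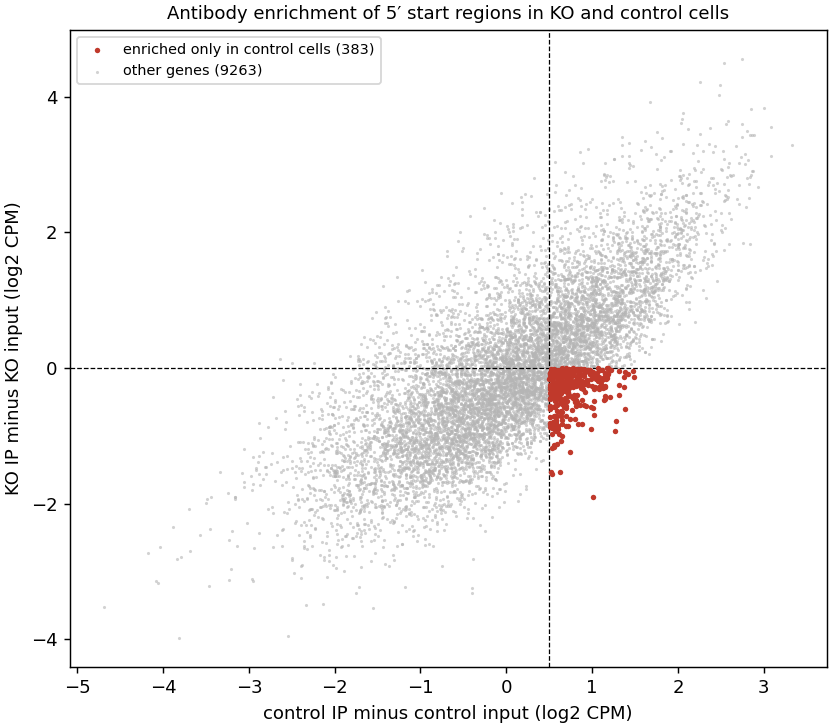
Each point is a start region, with IP minus input in control cells on the x axis and in KO cells on the y axis (both log2 CPM), for 9646 genes at a mean of at least 3. Dashed lines mark the thresholds of 0.5 and 0, and the 383 members fill the corner below and to the right of them without a gap to the other genes.

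In KO cells the IP and input libraries of a member often overlapped. The 3 KO IPs lay below the 3 KO inputs in 127 of 383 members, a pattern seen in 39.3% of all genes at that level and 31.6% of all listed genes, and above them in 0 (33.6% of genes at that level and 29.7% of all listed genes). In the remaining members the KO IPs and KO inputs overlapped. The 3 control IPs lay above the 3 control inputs in 376 members (41.4% of genes at that level and 33.0% of all listed genes). KO IPs below and control IPs above their inputs held together in 125 members, against 3.76% of genes at that level and 2.45% of all listed genes. The 3 KO IPs lay below the 3 control IPs in 356 members (37.9% and 28.6%). The choice used these contrasts, so the counts only describe it.

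The zero of the enrichment scale depends on how libraries are scaled. With each library centred on its median gene, 319 of the 383 members kept a KO enrichment of 0 or below. Centred on the cytosolic ribosomal protein mRNAs, which put the median enrichment of all listed genes at 0.53 in KO and 1.05 in control cells and their median difference at -0.52, 55 members kept it. Whether a start is called not enriched in KO cells is therefore relative to the deposited scaling.

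The thresholds cut through a continuous distribution. ZSWIM6 and HACL1 lay just inside the KO threshold with KO enrichments of -0.0001 and -0.0021, and TUBGCP5 (0.0009) and MAGI2-AS3 (0.0015) just outside. PGF (0.5025) and MTX3 (0.5036) lay just inside the control threshold, and ZMAT5 (0.4972) and PGAM1 (0.4953) just outside. Within 0.1 of the KO threshold there were 94 members and 117 genes that missed it, and within 0.1 of the control threshold 103 and 129. By mean level, LINC01234 (3.01) and CWC25 (3.04) were just in, and SNX11 (2.92) and TEFM (2.92) just out.

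The 10 members with the largest difference are described first, among those apart from other genes on the same strand with a mean log2 CPM of 5 or more. The pick also required all control IPs to lie above all control inputs. It left out members with all KO IPs above all KO inputs. HNRNPA2B1, which encodes an RNA-binding protein of the hnRNP family that is also discussed as an m6A reader, had the most reads of them. It gave 661, 646 and 619 CPM in KO IPs, 822, 780 and 734 CPM in KO inputs, 2323, 2279 and 2247 CPM in control IPs, and 873, 926 and 848 CPM in control inputs. All control IPs lay far above all other libraries, and all KO IPs lay below both kinds of input. The enrichment was -0.28 in KO and 1.37 in control cells, a difference of -1.65 ± 0.12 (SE of the fit).

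GDE1, a membrane glycerophosphodiester phosphodiesterase, had 44.7, 63.4 and 51.6 CPM in KO IPs, 123, 113 and 118 CPM in KO inputs, 170, 169 and 156 CPM in control IPs, and 111, 117 and 108 CPM in control inputs. GLO1, the glyoxalase that detoxifies methylglyoxal, had 102, 90.2 and 87.7 CPM in KO IPs, 227, 211 and 175 CPM in KO inputs, 310, 311 and 302 CPM in control IPs, and 210, 192 and 213 CPM in control inputs. In both genes the KO IPs were below every input and the control IPs above every input, with a difference of -1.72 ± 0.16 for GDE1 and -1.72 ± 0.14 for GLO1. Both had an enrichment in control cells close to the threshold, 0.56 for GDE1 and 0.59 for GLO1, and a clear depletion in KO cells, -1.16 for GDE1 and -1.13 for GLO1.

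FH, the fumarase of the tricarboxylic acid cycle, showed a different balance. It gave 147, 118 and 98.0 CPM in KO IPs, 179, 180 and 128 CPM in KO inputs, 382, 342 and 385 CPM in control IPs, and 183, 145 and 155 CPM in control inputs. Here the KO IPs and KO inputs overlapped and the control IPs stood above all other libraries, with an enrichment of -0.43 in KO and 1.20 in control cells. UBASH3B, a phosphatase-like regulator of receptor signalling, had the highest control enrichment of all members, 1.49, beside -0.14 in KO cells. Its inputs also differed, with 42.8, 35.5 and 32.9 CPM in KO inputs and 57.6, 51.6 and 58.7 CPM in control inputs, which did not overlap.

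The remaining members of this group of 10 were BEX1, MSRB2, DYNC1H1, SLC35A2 and TUBA1B. MSRB2 encodes a mitochondrial methionine sulfoxide reductase, DYNC1H1 the heavy chain of cytoplasmic dynein, SLC35A2 the UDP-galactose transporter of the Golgi and TUBA1B an alpha-tubulin. Their differences ran from -1.72 ± 0.17 for BEX1 to -1.58 ± 0.17 for TUBA1B. SLC35A2 had 22.6, 23 and 22.4 CPM in KO IPs, 34.8, 35.8 and 31.9 CPM in KO inputs, 62.5, 69.4 and 55.7 CPM in control IPs, and 36.6, 25.3 and 31.9 CPM in control inputs. Of the 10, FH has a G as annotated first base and the other 9 an A. TUBA1B is close in sequence to TUBA1C, also a member at -1.48 ± 0.17, and reads of the pair are uncertain. RSRP1, named here after its values were seen, has the largest difference of all members, -2.91 ± 0.31, from only 8, 11 and 10 reads in the KO IPs.

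**Figure D3:**
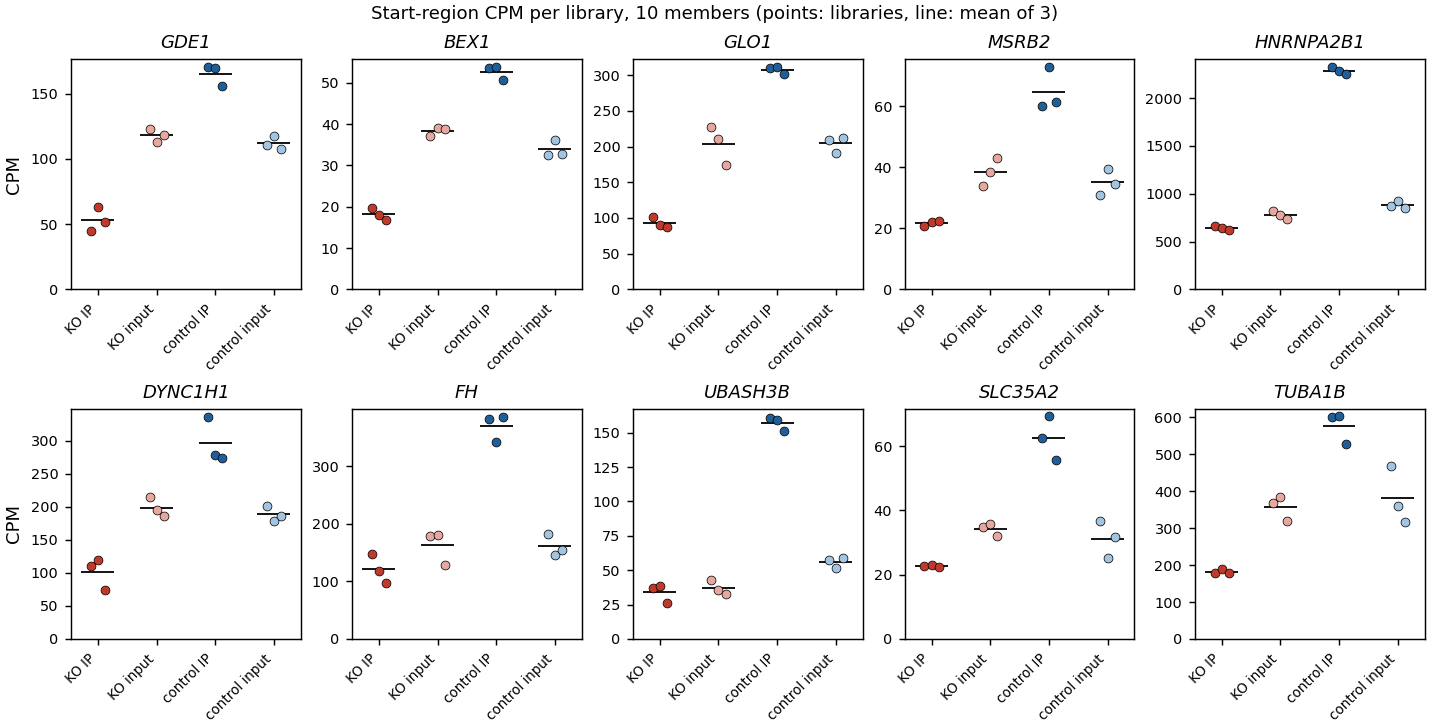
Points give the CPM of single libraries for the 10 members with the largest difference of enrichment at a mean log2 CPM of at least 5, in the order KO IP, KO input, control IP and control input, with a line at the mean of 3. The y axis of each panel starts at 0. The 3 control IPs lie above the 3 control inputs in every panel because the pick required it.

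The 10 members with the highest mean log2 CPM, among those that start away from other genes on the same strand, included genes closer to the thresholds. H3-3B, a gene for the replication-independent histone H3.3, had 1441, 1235 and 1157 CPM in KO IPs, 1692, 1622 and 1375 CPM in KO inputs, 2495, 2449 and 2420 CPM in control IPs, and 1721, 1706 and 1643 CPM in control inputs. The KO IPs and KO inputs overlapped, and the difference of enrichment was -0.83 ± 0.14. BSG, which encodes basigin, a partner of lactate transporters at the cell surface, had 573, 641 and 529 CPM in KO IPs, 737, 769 and 551 CPM in KO inputs, 1378, 1347 and 1349 CPM in control IPs, and 694, 616 and 593 CPM in control inputs. Its control IPs were the highest libraries and its other 3 groups overlapped one another, with a difference of -1.33 ± 0.16.

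Of these 10, HNRNPA2B1 is already given. The others included HNRNPAB (-1.14 ± 0.13), the nuclear gene CHCHD2 for a mitochondrial protein (-0.91 ± 0.14) and ACADVL for very long-chain acyl-CoA oxidation (-0.95 ± 0.12). They also included PTMS (-1.07 ± 0.17), TMEM123 (-1.36 ± 0.17), the amyloid precursor gene APP (-0.85 ± 0.12) and the thymidylate synthase gene TYMS (-0.84 ± 0.12). H3-3B and APP start with G by the annotation, and the other 8 with A. HNRNPAB, ACADVL, PTMS, TMEM123, APP and TYMS have a gene on the other strand near the start. Since the strand setting of the counting is not given, reads from such partners cannot be told apart there. Over all members, 136 have such a neighbour and 60 start in or within 200 bases of another gene on the same strand.

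Functions were read from 42 gene lists, and 123 of the 383 members stand in at least 1 of them. The lists were chosen with earlier results of these data known, and a share is set beside the 3.97% of all genes at a mean of at least 3. The SR and hnRNP list had the highest share of the lists. It also holds other RNA-binding protein genes, such as RBM4 and RBM23. Of its 72 genes at that level, 13 were members (18.1%). The SR proteins bind exonic enhancers and the hnRNPs coat nascent transcripts and often act against them. The members were HNRNPA2B1, HNRNPAB, HNRNPD, HNRNPH1, PTBP1, PTBP3, SRSF1, SRSF6, SRSF7, TRA2A, RBM4, RBM23 and RSRP1, of which all but HNRNPA2B1, HNRNPAB, HNRNPD and SRSF1 were named after their values were seen. Of these 13, 8 begin with A. The list as a whole was not shifted in the same way, since its 72 genes had a median difference of -0.16 (KO minus control), beside -0.14 over all genes. The list's median enrichment was 0.17 in KO and 0.51 in control cells, beside -0.09 and 0.05 over all genes at that level.

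SRSF1, HNRNPAB and PTBP1 show how the libraries of these members lay. SRSF1 had 352, 344 and 363 CPM in KO IPs, 426, 454 and 474 CPM in KO inputs, 657, 700 and 704 CPM in control IPs, and 421, 453 and 454 CPM in control inputs. HNRNPAB had 600, 624 and 500 CPM in KO IPs, 619, 649 and 706 CPM in KO inputs, 1133, 1023 and 1094 CPM in control IPs, and 563, 548 and 575 CPM in control inputs. PTBP1, the polypyrimidine tract-binding protein, had 133, 152 and 125 CPM in KO IPs, 217, 221 and 169 CPM in KO inputs, 377, 383 and 344 CPM in control IPs, and 253, 198 and 183 CPM in control inputs. The control IPs exceeded every other library in these 3 genes. The KO IPs lay below every input in SRSF1 and PTBP1, and in HNRNPAB they overlapped the inputs, of which the KO inputs were above the control inputs. SRSF1 starts close to another gene, and its reads are uncertain. HNRNPH1, which begins with C by the annotation, had a difference of -1.02 ± 0.13.

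The core spliceosome list had 5 members of 65 (7.69%), all starting with A. SNRNP70, a protein of the U1 particle, had 271, 272 and 247 CPM in KO IPs, 391, 410 and 393 CPM in KO inputs, 598, 565 and 563 CPM in control IPs, and 384, 347 and 339 CPM in control inputs. Its KO IPs lay below and its control IPs above every input, with a difference of -1.29 ± 0.12. CWC25, CWC27, LSM1 and SNRNP27 were the other 4, with differences between -1.36 and -0.85.

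Of 35 genes of the tricarboxylic acid cycle and fatty acid oxidation, 5 were members (14.3%), namely FH, IDH3B, ACADVL, ACAD9 and the electron transfer flavoprotein subunit gene ETFA, with ACAD9 named after its values were seen. ETFA had 172, 191 and 228 CPM in KO IPs, 230, 222 and 240 CPM in KO inputs, 354, 432 and 420 CPM in control IPs, and 243, 232 and 218 CPM in control inputs. Its control IPs stood clear of the rest, and the other groups overlapped. Of 30 glycolysis and hypoxia-response genes, 4 were members (13.3%), the kinase genes PGK1 and PFKP, the aldolase gene ALDOC and NDRG1. PFKP had a difference of -1.30 ± 0.14 and PGK1 one of -0.87 ± 0.18. Respiratory complexes II to IV and ATP synthase gave 0 of 53, and the difference between these shares was not tested.

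Of 43 proteasome subunit genes, 5 were members (11.6%). PSMA5, an alpha-ring subunit of the 20S core, had 121, 146 and 172 CPM in KO IPs, 276, 279 and 240 CPM in KO inputs, 350, 390 and 385 CPM in control IPs, and 274, 272 and 241 CPM in control inputs. Its KO IPs were below and its control IPs above every input, a difference of -1.38 ± 0.16. PSMA3, PSMB1 and PSMB6 of the core and PSMD7 of the 19S lid had smaller differences, between -1.13 and -0.68.

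Among 26 genes that write, erase or read adenosine methylation, 3 were members (11.5%), HNRNPA2B1, the demethylase-family gene ALKBH1 and the methyltransferase gene METTL4. ALKBH1 had one of the largest differences, -2.19 ± 0.31, but from 27, 21 and 14 reads in the KO IPs. It gave 13.3, 10.3 and 8.09 CPM in KO IPs, 25, 19.8 and 15.3 CPM in KO inputs, 50.9, 42.9 and 39.4 CPM in control IPs, and 23.2, 18.0 and 15.0 CPM in control inputs. Its control IPs lay above all other libraries and its KO IPs below all inputs. METTL4 differed by -1.11 ± 0.24. The list for cap synthesis, binding and removal, drawn by gene name, gave 2 members of 27. They were LSM1, a subunit of the decapping activator ring (-1.21 ± 0.22), and the translation factor gene EIF4G2 (-0.81 ± 0.15). EIF4G2 also stands in the translation initiation list, and a place in the cap list does not show a role at the cap.

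Further lists held members as well. Heat shock proteins and chaperones had 5 of 62 (8.06%), all starting with A, with CCT2 of the TRiC chaperonin at -1.22 ± 0.16 and HSP90AA1 at -0.97 ± 0.18. HSPA1A and HSPA1B, near-identical copies, were both members and their reads are uncertain (HSPA1A named after its values were seen). DNA replication and repair had 7 of 87 (8.05%), including TYMS, which makes thymidylate. Protein secretion had 8 of 101 (7.92%), with the disulfide isomerase gene PDIA3 at -1.38 ± 0.12 and the GTPase gene ARF4 at -1.15 ± 0.13. RNA polymerases and general transcription factors had 7 of 106 (6.6%), cytoskeleton and adhesion 6 of 96 (6.25%), the endosome and lysosome 10 of 170 (5.88%) and ubiquitin conjugation 7 of 126 (5.56%). Mitochondrial ribosomal proteins (3 of 70), ribosome biogenesis (3 of 69), solute carriers (6 of 137), antioxidant enzymes (2 of 45) and apoptosis or autophagy (2 of 46) stood between 4.29 and 4.44%.

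Several lists held no member. Of 83 cytosolic ribosomal protein genes none was in the class, and their median enrichment was -0.57 in KO and -1.06 in control cells. No member came from 38 aminoacyl-tRNA synthetases, 37 replication-dependent histone genes, 21 cholesterol synthesis genes or 20 p53 targets. Nor did any come from 15 dedifferentiated melanoma genes, 14 elongation and release factors or 7 melanocyte lineage genes. Beside a share of 3.97%, lists of this size may hold few members or none, and nothing is read from these. Their median control enrichments ran from -0.06 (synthetases) to 0.72 (dedifferentiated melanoma), unlike that of the ribosomal protein genes. Small nucleolar and Cajal body RNAs (0 of 111) and mitochondrially encoded genes (0 of 29) had none either, and 2 of 227 microRNA genes were members. These are MIR6791 and MIR6869, whose starts lie beside those of other genes, which makes their reads uncertain. In all, 372 members are protein-coding and 7 are long non-coding RNAs.

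**Figure D4:**
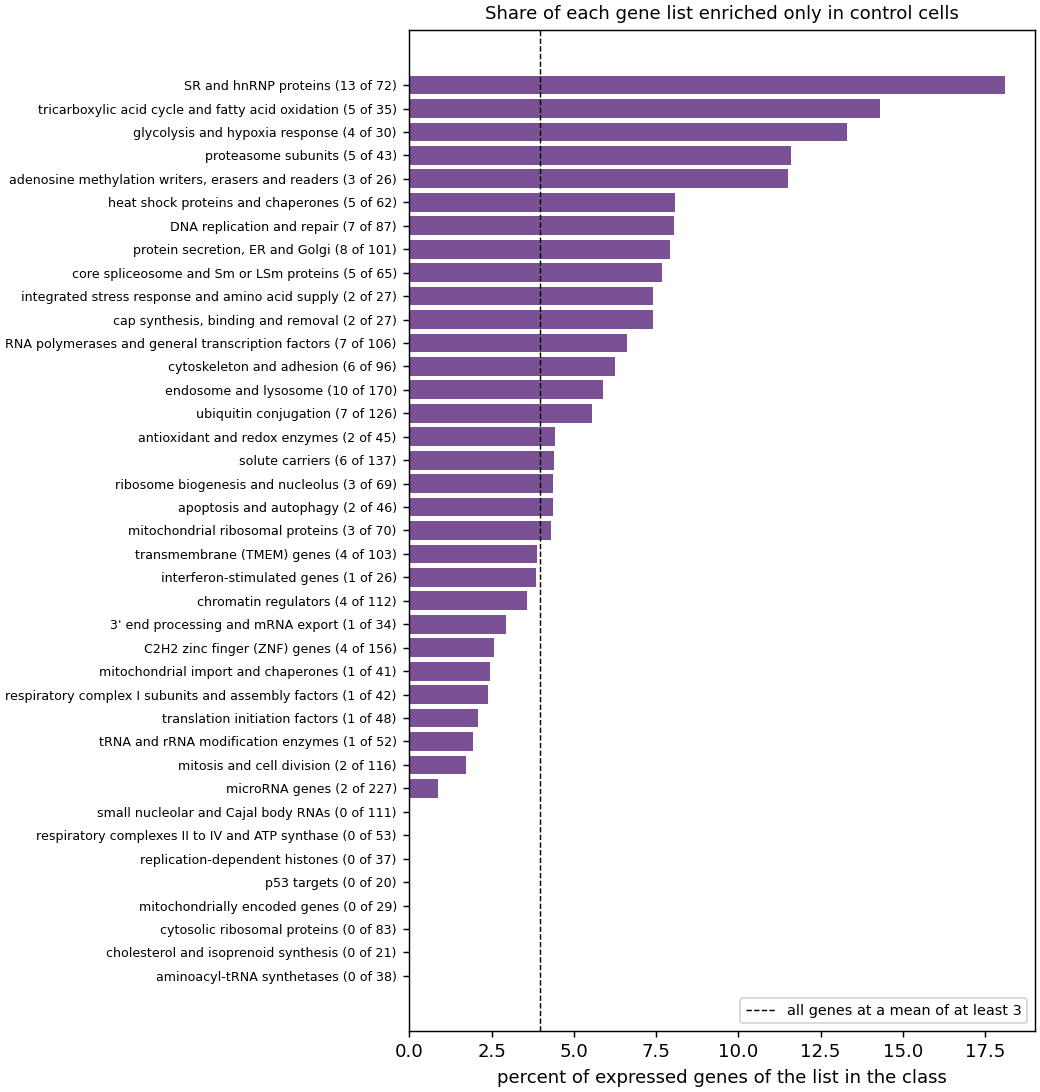
Bars give, for each gene list with at least 20 genes at a mean log2 CPM of at least 3, the percent of those genes that are in the class, with counts in brackets. The dashed line marks the 3.97% of all genes at that level, and the SR and hnRNP list stands at 18.1%.

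By chromosome, the share of genes in the class ran from 2.26% on chromosome 22 (5 of 221) to 5.99% on chromosome 17 (38 of 634), with 5.95% on chromosome 20 and 5.25% on chromosome 14.

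The abundance of members in the inputs was about as close between the genotypes as that of all genes at the same level. The median log2 difference of KO input minus control input was 0.03 among members (quartiles -0.17 and 0.23). Over all 9646 genes at that level it was -0.005 (quartiles -0.20 and 0.19). Of 383 members, 216 lay within 0.25 of no difference, as did both quartiles of all genes. The difference was above 0 in 213 members and below 0 in 170, and beyond 1 in either direction in 6. No count over all genes stands beside these. By limma with Benjamini-Hochberg adjusted p under 0.05 over all listed genes, 34 members were called higher in KO input and 27 lower. Of genes at the same level, 6.71% were called higher and 7.14% lower, and of all listed genes 5.56% and 5.67%. The 3 KO inputs lay above the 3 control inputs in 79 members and below in 68, against 18.0% of genes at that level in each direction, and 15.7% above and 16.0% below of all listed genes. Nothing is read from these counts, because the inputs took part in the choice.

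A higher KO input counts towards a place in the class. MORC4, a chromatin ATPase of the MORC family, had 11.4, 14.7 and 16.1 CPM in KO IPs, 26.5, 23.4 and 28.7 CPM in KO inputs, 12, 11.9 and 9.47 CPM in control IPs, and 6.53, 7.87 and 7.96 CPM in control inputs. Its KO and control IPs overlapped through the lowest KO library, while its inputs were far apart, by 1.81 ± 0.20. GIT1, a scaffold protein of focal adhesions, had 437, 410 and 348 CPM in KO IPs, 478, 400 and 469 CPM in KO inputs, 427, 371 and 433 CPM in control IPs, and 263, 236 and 239 CPM in control inputs. The KO and control IPs of GIT1 overlapped, and its control inputs lay below all other libraries. ADGRL4 (1.25 ± 0.26), HDAC9 (1.03 ± 0.27) and the thymidylate kinase gene DTYMK (0.94 ± 0.10) had the other 3 of the 5 largest input differences upward among members that start away from other genes on the same strand.

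At the other end, a lower KO input counts against a place in the class. TIE1, an endothelial receptor tyrosine kinase, had 17.2, 22 and 19.5 CPM in KO IPs, 21.3, 19.8 and 17.6 CPM in KO inputs, 114, 111 and 116 CPM in control IPs, and 51.9, 51.4 and 47.4 CPM in control inputs. Its KO IPs and KO inputs overlapped, and both were far below the control libraries, with inputs apart by -1.36 ± 0.13. AREG, the EGF receptor ligand amphiregulin, had 11.9, 16.2 and 17.3 CPM in KO IPs, 19.9, 15.2 and 20.9 CPM in KO inputs, 99.8, 92.4 and 90.7 CPM in control IPs, and 48.2, 43.8 and 47.1 CPM in control inputs. UBQLN2 (-1.16 ± 0.15), the stress pseudokinase gene TRIB3 (-0.88 ± 0.13) and TOR1AIP2 (-0.85 ± 0.19) followed.

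TYMS, on chromosome 18, stood among the members with lower KO inputs, with 357, 391.9 and 383 CPM in KO inputs and 665, 654 and 715 CPM in control inputs, a difference of -0.85 ± 0.09. MYL12B, another member on that chromosome with a lower KO input, differed by -0.51 ± 0.09, and PMAIP1, named after its values were seen, lay the other way at 0.57 ± 0.10. The 5 members on chromosome 18 had a median input difference of -0.34, beside 0.29 for its 164 genes at that level. Of the first bases, 23 of the 34 members called higher and 18 of the 27 called lower in KO input were A.

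The class was then chosen anew from part of the libraries and examined in the rest. The table numbers the 3 columns of each group, and the numbers serve only as names. For each number, genes meeting the rule in those 4 libraries were tested in the other 8, with limma over all listed genes. Column 1 chose 462 genes, of which 261 are among the 383, column 2 chose 447 (257) and column 3 chose 464 (264).

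In libraries that took no part in the choice, many of the chosen genes were called lower in KO cells, with adjusted p under 0.05. The difference of enrichment was called lower in 271 of 462 genes chosen by column 1 (58.7%), beside 10.2% of all listed genes and 16.2% of genes at the level filter. For column 2 it was 219 of 447 (49%, beside 8.29% and 13.2%) and for column 3 it was 294 of 464 (63.4%, beside 12.6% and 19.9%). The opposite call was made for 0 genes of column 1 (beside 8.22% of all listed genes and 11.3% at the level filter), 0 of column 2 (6.85% and 9.59%) and 1 of column 3 (10.8% and 14.9%). The 3 tests share libraries and are not independent of each other.

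The size of the difference was smaller outside the choosing libraries. Genes chosen by column 1 had a median difference of -0.88 in the other columns and -1.06 in column 1 itself, those of column 2 had -0.85 and -1.09, and those of column 3 -0.85 and -1.09. In the same held-out libraries, genes at the level filter had a median of -0.14, -0.15 and -0.12, and all listed genes of -0.05, -0.05 and -0.04. Of the chosen genes, 45.2%, 48.5% and 45% met the full rule again in the held-out means, beside 4.42%, 4.3% and 4.09% of all genes at the level filter. Between 67.0 and 70.8% of the chosen genes began with A.

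The median input difference of chosen genes was above 0 in the libraries that chose them and nearer to 0 in the others. In the choosing column their median KO input minus control input was 0.11, 0.08 and 0.13 for columns 1, 2 and 3. In the other columns it was -0.02, -0.04 and 0.01, beside -0.01 for all listed genes in each. Held out, 22 genes of column 1 were called higher in KO input (4.76%, beside 2.41% of all listed genes and 2.73% at the level filter) and 16 lower (3.46%, beside 2.72 and 3.57%). Column 2 gave 8 higher (1.79%, beside 1.9 and 2.01%) and 9 lower (2.01%, beside 1.77 and 2.29%). Column 3 gave 23 higher (4.96%, beside 3.39 and 4.1%) and 25 lower (5.39%, beside 3.37 and 4.41%).

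**Figure D5:**
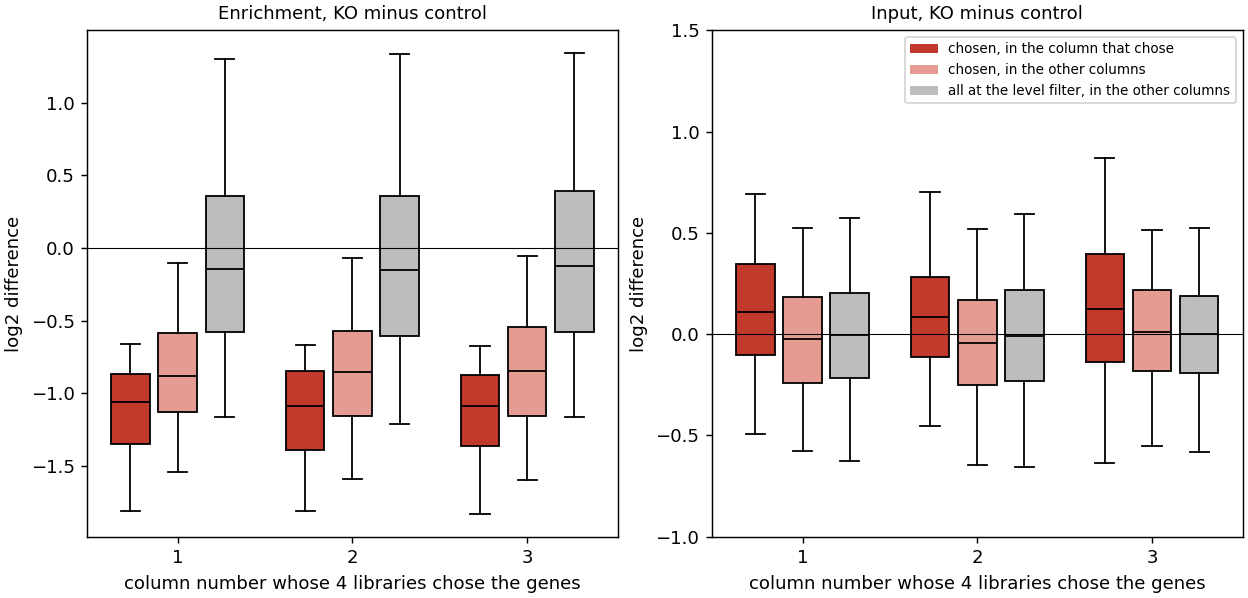
Boxes give the 25th, 50th and 75th percentiles and whiskers the 5th and 95th, for genes chosen in 1 column number in the libraries that chose them, for the same genes in the other 8 libraries, and for all genes at the level filter. On the left the KO minus control difference of enrichment has medians of -0.88 to -0.85 in held-out libraries, and on the right the median input difference is 0.08 to 0.13 in the choosing libraries and -0.04 to 0.01 in the others.

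Membership varied between columns. Of the 383 members, 123 met the rule in each of the 3 columns taken alone, 167 in 2 columns, 79 in 1 column and 14 in none. Of the 123, 87 begin with A. HNRNPA2B1, GDE1, BEX1, GLO1, MSRB2, DYNC1H1, FH and SLC35A2 of the 10 largest differences are among the 123, whereas UBASH3B and TUBA1B are not. HNRNPA2B1 differed by -1.61, -1.69 and -1.65 when column 1, 2 or 3 was left out, and GLO1 by -1.71, -1.61 and -1.83. Of the 10 members with the highest mean, CHCHD2, ACADVL, APP and TYMS are not among the 123.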

How the data were processed

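The deposited table gives log2 CPM at the start of each listed gene, with a column for each library. The tools named in the submitters' processing notes are edgeR 3.12.1 in R 3.3.3, featureCounts, deepTools 3.0.2, SAMtools 1.7 and HISAT2 2.0.4, with hg38 as the build and no order stated. Window, strand setting and gene filter were not given in the sources used here. With an added count of 0.25, 100% of values are whole reads within 0.01, which gives the depth. The added count makes the log2 differences of low genes too small. The intervals on the A share cover counting error over genes only. Reads carry no molecular identifiers.

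The fit used limma 3.58.1 (R 4.3.3) with a trend on all 16009 genes and 12 libraries, with a mean for each of 4 groups. It was also run on simulated reads. These lacked the differences in read composition between IPs and inputs seen here, and nothing is read from that run. Replicates are biological per the design text, and p-values cover the spread between these samples. Columns are numbered and labels lettered, so columns were assigned to groups only. Deviations of same-numbered columns correlated between 0.1 and 0.244 in columns 1 and 3 but between -0.0754 and 0.0894 in column 2, so pairing was not used. Planned edgeR and DESeq2 alternatives were not run, since the deposited unit is log2.

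Of the listed genes, 15903 matched GENCODE 44 (hg38), which gave names, starts and windows. Promoter and protein tables were not used. Members, the 42 lists and the markers were chosen with earlier results of these data known. Named genes leave out starts in or within 200 bases of another gene on the same strand. They are the 10 largest differences at a mean of at least 5, the 10 most abundant and the 5 input extremes each way. The 10 largest differences also had to have all control IPs above all control inputs, and not all KO IPs above all KO inputs. Up to 4 members of each list (shared starts allowed) and the genes at the thresholds were added. Alternatives were 2 scalings, an added count of 2, other level filters and thresholds, other fits and each library left out. Held-out fits with a further library left out were made but are not reported. Each held-out test already rests on 2 libraries a group.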

Additional observations from a re-analysis of the deposited data

Results flagged for a closer look

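In libraries that took no part in choosing the genes, the enrichment differed between the genotypes, as a limma test of the difference between KO and control cells (adjusted p under 0.05 over all listed genes). It was called lower in KO cells for 271 of 462 genes chosen by column 1, beside 10.2% of all listed genes and 16.2% of genes at the level filter. For column 2 it was 219 of 447, beside 8.29% and 13.2%, and for column 3 it was 294 of 464, beside 12.6% and 19.9%. The genes chosen by different columns overlap, and the tests share libraries. All groups have 3 libraries, so no test for a single outlying library was made.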

How the results depend on the processing

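With libraries centred on ribosomal protein mRNAs, the class grew to 1118 genes, 55 of them among the 383, with 58.6% A starts, 84 called higher and 44 lower in KO input, and a median input difference of 0.0773. Held out, 912 of 1341, 589 of 723 and 1050 of 1531 chosen genes were then lower in KO cells (columns 1, 2 and 3), beside 33.7, 44.3 and 37.5% of genes at the level filter under the same scaling. Input was then lower for 37 genes of column 1 (2.76% of those chosen) and higher for 17 of column 2 (2.35%). In column 3 it was higher for 38 (2.48%) and lower for 41 (2.68%). Median centring gave 434 members (319 shared) and an added count of 2 gave 379. A mean of at least 5 gave 225 members, and 5 genes of column 2 with a higher held-out input. With no filter there were 776 members, with 62.8% A starts and a median input difference of 0.0645. Of these members, 57 were higher and 56 lower in KO input, beside 5.56% and 5.67% of all listed genes. Stricter thresholds (1 and -0.5) left 6 members and looser ones (0.25) 1234. Starts from the gene record gave 50.5% A. Leaving out each library in turn gave 371 to 406 members, 68.9 to 71.8% A starts, 23 to 42 higher and 20 to 36 lower in KO input, and medians of 0.0256 to 0.0576. With the column number as a replicate block, 43 members were higher and 37 lower in KO input. With the 6 inputs alone it was 35 and 35. Except with no filter, no share of all genes called stands beside the input counts in this paragraph. Nothing is read from these counts. Same-numbered columns did not all deviate together, so the block is no pairing. Over 111 named genes, PCIF1 included, 1681 values of the difference of enrichment moved by less than the spread and 95 by more, all 95 under ribosomal protein centring. The KO IPs are the shallowest libraries, with a median of 65 reads per member. The causes of these shifts were not tested.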
